A study of Homo sapiens with 6 samples.

Results

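The genes described here encode the proteins of the cytosolic ribosome. They were taken from the deposited table as the rows typed mRNA whose symbol has the form RPL or RPS followed by a number, or RPLP0 to RPLP2, without the S6 kinases and without suffixed scaffold copies. This rule gave 72 of the 20851 genes listed, 44 of the large subunit and 28 of the small subunit, on 20 chromosomes. RNA had been sequenced from 6 libraries of A375, a human melanoma cell line. The control, A375neg, carries a nontargeting guide RNA and its labels name a GFP control (3 libraries). A375RIPK4.KO cells carry a CRISPR/Cas9 knockout of RIPK4, a receptor-interacting protein kinase, and all 3 of their libraries come from clone #1, so that knockout and clone cannot be told apart. Both sublines were grown in RPMI-1640 with serum and had been made with the CRISPR/Cas9 system.

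A ribosome joins a small subunit, which reads the mRNA, to a large subunit, which forms the peptide bond and releases the chain through an exit tunnel. Each protein is normally present once per ribosome, with the acidic stalk proteins as the known exception. Their mRNAs are short and abundant, and most begin with a C followed by a run of pyrimidines. This is the TOP motif, through which mTOR signalling and LARP1 control their translation together. Growing cells, melanoma lines included, spend much of their transcription on these genes and on ribosomal RNA.

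The starts of some genes that the results turn on show this motif, and 2 of those printed lack it. Each window holds 20 bases before and 20 bases from the start annotated by RefSeq on GRCh38.p14, written 5′ to 3′ on the gene's own strand. Capitals mark the unbroken C or T run that opens with C at the start. The first group holds RPL13, which was lower in the knockout, the founder RPS27 and its lower copy RPS27L.
RPL13 (chr16:89560662-89560701, plus strand): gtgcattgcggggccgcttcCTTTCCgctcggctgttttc
RPS27 (chr1:153990742-153990781, plus strand): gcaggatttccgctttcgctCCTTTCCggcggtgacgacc
RPS27L (chr15:63157458-63157497, minus strand): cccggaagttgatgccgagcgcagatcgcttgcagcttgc
RPL13 has a run of 6 pyrimidines and RPS27 one of 7, while RPS27L has none at its annotated start. Other copies differ in this: RPL22L1 has a run of 6, RPL36AL one of 3 and RPL26L1 none. The next group holds 2 stalk genes and RPL39, whose runs are longer, and RPS26, an abundant member with no run at the annotated start.
RPLP1 (chr15:69452798-69452837, plus strand): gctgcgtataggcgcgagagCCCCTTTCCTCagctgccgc
RPLP2 (chr11:809947-809986, plus strand): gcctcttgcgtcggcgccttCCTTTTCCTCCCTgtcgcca
RPL39 (chrX:119791611-119791650, minus strand): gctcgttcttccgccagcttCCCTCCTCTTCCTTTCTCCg
RPS26 (chr12:56041898-56041937, plus strand): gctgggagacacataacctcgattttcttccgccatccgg
Of the 58 members with an entry in the RefSeq table, 41 (70.7%) had a run of at least 5 in this place. The share was 7.62% over the 10010 protein-coding genes tested that have an entry, 8.82% over 68 mitochondrial ribosomal protein genes and 12.5% over 32 ribosome biogenesis genes. It was 10 of 11 over translation factors known as TOP genes. A run is a description of the annotated start, which need not be the start used in these cells.

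The libraries held 21882863 to 26694140 gene counts. RIPK4 had 319, 368 and 404 counts in A375neg and 42, 51 and 61 in A375RIPK4.KO, a log2 fold change of -2.69 ± 0.17 (SE; adjusted p = 1.0e-05, edgeR's quasi-likelihood test, Benjamini-Hochberg adjusted). Of 9 melanocytic markers 6 were listed. They summed to 387 to 418 CPM (counts relative to library size, TMM-normalized) in A375neg and 333 to 350 CPM in A375RIPK4.KO, without overlap. All 5 melanocytic markers tested had log2 fold changes below 0, from -0.89 to -0.20 (median -0.44). Of these, 3 were lower at an adjusted p under 0.05 in the same test. Of 7 leukocyte markers 5 were listed, and of these only PTPRC had at most 3 counts in every library. The list summed to 43.7 to 50.4 CPM in A375neg and 48.1 to 51.3 CPM in A375RIPK4.KO. Of the 2 leukocyte markers tested, 1 was lower (log2 fold change of -2.62, adjusted p under 0.05 in the same test) and the other stood at 0.14. Fibroblast and endothelial markers summed to 3.27 to 4.21 and 0.826 to 1.65 CPM, and keratinocyte markers to 71.5 to 75.2 and 53.3 to 66.2 CPM, both without overlap. Their part in the results was not tested. One library stood apart for the ribosomal protein genes: A375RIPK4.KO replicate 2, described next.

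The ribosomal protein genes took 6.55%, 6.46% and 6.50% of all gene counts in the A375neg libraries. They took 6.04%, 7.65% and 6.23% in the A375RIPK4.KO libraries. The control libraries were nearly equal, whereas replicate 2 of the knockout lay above and its replicates 1 and 3 below every control. The means were 6.50% ± 0.0474 and 6.64% ± 0.877 (SD, n = 3 each), and no difference was detected (exact permutation test, two-sided, p = 1, where 0.1 is the smallest value that 3 against 3 allows). Without replicate 2 the knockout mean was 6.14% and the difference was -0.366 percentage points (exact permutation test, p = 0.1, the smallest that 3 against 2 allows). No single member held more than 0.410% of a library.

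Most members were measured deeply. A mean of at least 1000 counts per library was reached by 64 of 72, and these are called well measured here. On the scale of CPM per kilobase of transcript (median length of the GENCODE v29 transcripts), their median level was 1247, and 50 of 64 lay within 2-fold of it. The highest was RPLP0, the stalk protein that anchors RPLP1 and RPLP2 to the large subunit, at 3360 ± 327 CPM per kb (SD over 6 libraries). RPLP1 followed at 3222 ± 387, RPS2, a small-subunit protein of the mRNA entry channel, at 3135 ± 338 and RPS27 at 2820 ± 453. RPL8, which lies near the peptidyl transferase centre, came next at 2387 ± 276 CPM per kb. The ranges over the 6 libraries overlapped between neighbours in this order.

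The lowest well measured levels per length included RPL26L1, a copy of RPL26, at 72.6 ± 8.58 CPM per kb and RPS27L at 153 ± 25.8. The other 8 members had means under 1000 counts. RPL39L, a copy of RPL39 best known from testis, had 317 to 421 counts. RPL3L, the muscle form of RPL3, had 0 to 2 counts, at or under the 3 counts that a reading of 0 allows. The remaining 6 are RPL17, RPS10, RPL7A, RPS18, RPL36A and RPS25, all proteins of every ribosome, and their counts are uncertain. RPL17, RPS10 and RPL36A overlap a readthrough gene on the same strand in GENCODE (RPL17-C18orf32, RPS10-NUDT3 and RPL36A-HNRNPH2). Among the well measured members RPL22, RPL26, RPS13, RPS15A and RPL36 also overlap a coding gene on the same strand. RPS18, RPL7A and RPS25 have 5, 1 and 1 scaffold copies listed as rows of their own, and summing these raised RPS18 only to between 209 and 307 counts. How the counting treated such shared reads was not tested. RPS25 and RPL3L did not pass the filter on low counts, which left 70 members tested. The 5 lowest levels per length were those of RPL3L, RPS25, RPL36A, RPS18 and RPL7A, from 0.0159 to 1.44 CPM per kb.

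The spread between replicates differed between the groups. The SD of log2 CPM among the 3 control libraries had a median of 0.047 over the members, compared with 0.10 over all 14443 genes tested and 0.047 over the 1445 most abundant genes. Among the 3 knockout libraries it was 0.24 over the members, 0.15 over all genes and 0.10 over these abundant genes. These abundant genes include 62 of the members. The members were thus about as even as the abundant genes in the control and more uneven than these in the knockout.

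This unevenness came with 1 library and ran through nearly all members. Without it, the median SD of the knockout exceeded that of the control by 0.0094 in place of 0.198. Replicate 2 was the highest of the 3 knockout libraries for 68 of 70 members (97.1%), compared with 41.0% of all genes tested, and the highest of all 6 libraries for 64 (91.4%, compared with 26.9%). The exceptions among knockout libraries were RPS18 and RPL36A, both with under 20 counts on average. Relative to the A375neg mean, the median member lay at 0.01, -0.02 and 0.01 on the log2 scale in the controls and at -0.14, 0.32 and -0.07 in A375RIPK4.KO replicates 1, 2 and 3. The excess of replicate 2 over the mean of replicates 1 and 3 had a median of 0.41 (log2), against 0.01 over all genes. The scaling between libraries holds the latter near 0. Among the well measured members the excess ranged from 0.23 in RPS26, a protein of the mRNA exit channel, to 0.67 in RPS29, a zinc-binding protein of the small-subunit head. Over all genes tested, the mean chi-square per gene between the counts of paired libraries was 24.6 and 20.5 for replicate 2 against replicates 1 and 3. It was 6.88 between replicates 1 and 3 and 6.39 to 9.03 between control libraries. These means include the members.

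**Figure D1:**
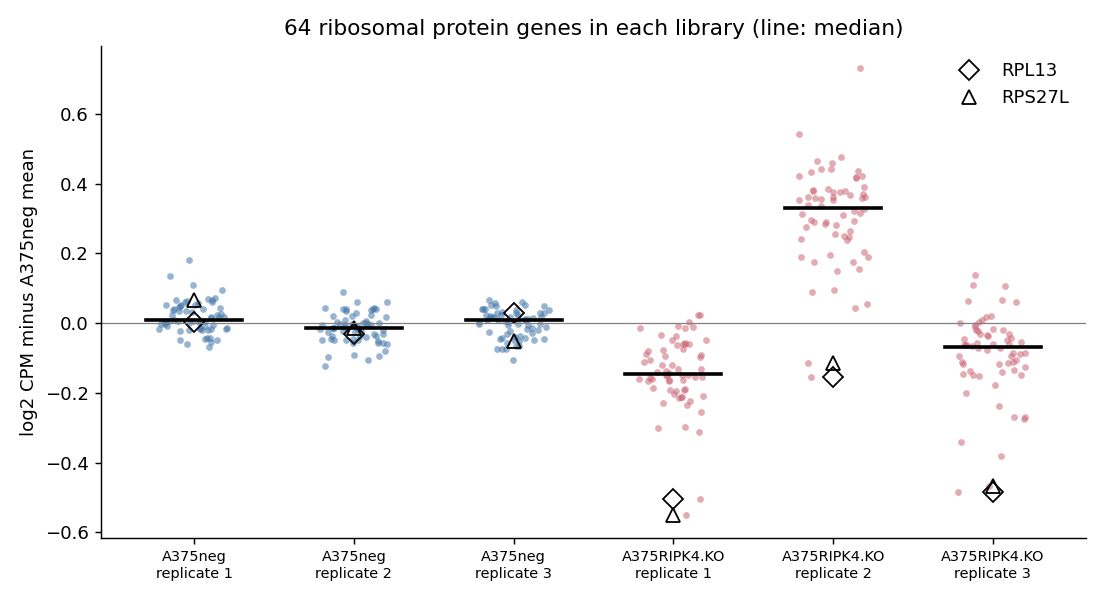
Each point is 1 of 64 well measured ribosomal protein genes, as log2 CPM minus its mean over the A375neg libraries; black lines are medians, open symbols RPL13 and RPS27L. The median is 0.32 in A375RIPK4.KO replicate 2 over the tested members, and RPL13 and RPS27L lie under 0 in all 3 knockout libraries.

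Other gene groups had smaller values in this library. The median excess was 0.29 over 74 mitochondrial ribosomal protein genes, 0.24 over 17 translation factors and 0.19 over 10 ribosomal protein chaperones. It was 0.07 over 40 ribosome biogenesis genes, 0.01 over 15 regulators and -0.04 over 13 RNA polymerase I genes, beside 0.01 over all genes. Ribosomal proteins whose symbols fall outside the rule showed values like the members. Among them were RPSA (0.41), RACK1 (0.35), FAU (0.49), made as a fusion with a ubiquitin-like protein, and RPL36AL (0.46), a copy of RPL36A.

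Transcript length moved with it too. The slope of log2 CPM on log2 length over all genes with a length was -0.051 in A375RIPK4.KO replicate 2 and between -0.0076 and 0.023 in the other 5 libraries. Over protein-coding genes only, it was -0.094 in A375RIPK4.KO replicate 2 and between -0.0085 and 0.044 in the other 5 libraries. Members had a median length of 737.5 bases compared with 2518 for all genes tested. Within the 64 well measured members, the excess had a Pearson r of -0.42 with log2 length and -0.23 with GC content, a description across genes that share these libraries. With the length trend of all genes removed from each library the median excess of the members was 0.30, compared with 0.02 over all genes. It was 0.23 over the translation factors, 0.22 over the mitochondrial ribosomal protein genes and 0.15 over the chaperones. For biogenesis genes, regulators and RNA polymerase I genes it was 0.06, 0.04 and -0.07. The steeper trend of protein-coding genes was not removed, so 0.30 may hold a further part that goes with length. The part of RNA quality or handling in the excess was not tested. Mitochondrial mRNA took 3.74% to 4.41% of counts, and 4.31% in this library.

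The group comparison asks whether loss of RIPK4 altered the transcripts of the translation machinery. With all 6 libraries, 2 of 70 members were lower in A375RIPK4.KO and 0 were higher (edgeR's quasi-likelihood test, Benjamini-Hochberg adjusted p under 0.05). Over all genes tested, 8.24% were lower and 8.40% higher. At an unadjusted p under 0.05, 1 member was higher and 2 were lower, compared with 15.1% and 14.9% of all genes. DESeq2 also called 0 higher and the same 2 lower. Of the same 14443 genes it called 1316 higher and 1239 lower. None reached 1.5-fold, which 9.04% of all genes did. The median log2 fold change was 0.04 over the members and -0.0047 over all genes, with 48 members above 0. It was 0.04 over 43 large-subunit and 0.07 over 27 small-subunit genes. For 61 of the 64 well measured members the 95% interval lay within 1.5-fold in both directions, with a median half-width of 0.25 (log2). The exceptions were RPL13, RPS27L and RPS29.

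RPL13 encodes a large-subunit protein needed for the assembly of that subunit. It stood at 1316, 1286 and 1339 CPM in A375neg and at 925, 1181 and 939 CPM in A375RIPK4.KO. All 3 knockout libraries lay under all 3 controls. It fell by 0.37 ± 0.095 on the log2 scale (SE; adjusted p = 0.0271, edgeR's quasi-likelihood test, Benjamini-Hochberg adjusted), or 1.29-fold. Its share of the members' own counts was 2.02% ± 0.0395 and 1.52% ± 0.0466 (SD, n = 3 each; exact permutation test, p = 0.1). This share removes the offset of replicate 2 in the members' summed counts, but not any part particular to RPL13.

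RPS27L is a copy of RPS27 and a known p53 target. It stood at 146, 138 and 134 CPM in A375neg and at 95.02, 129 and 101 CPM in A375RIPK4.KO, again without overlap. It fell by 0.37 ± 0.11 on the log2 scale (SE; adjusted p = 0.0470, edgeR's quasi-likelihood test, Benjamini-Hochberg adjusted). As a share of the members' counts it went from 0.215% ± 0.00810 to 0.162% ± 0.00113 (SD, n = 3 each; exact permutation test, p = 0.1). This smallest possible p was also reached by other members, 20 of 70 tested in all, 12 with a higher and 8 with a lower share in the knockout. It needs groups that do not overlap, which 36.5% of all genes tested had on the CPM scale. The same count over all genes on the share scale was not made. When the libraries were scaled to the members' summed counts, an alternative chosen after seeing the data, both genes were lower by a log2 value of -0.41, with adjusted p = 0.00464 for RPL13 and 0.0372 for RPS27L.

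Both calls rest on few libraries. Leaving out any 1 of the 3 controls, or A375RIPK4.KO replicate 1 or 3, left 0 members called. These fits called 10.3% to 14.4% of all genes, compared with 16.6% with all 6 libraries. Over all 6 leave-outs the direction was the same: RPL13 ranged from -0.49 to -0.31 and RPS27L from -0.51 to -0.28 on the log2 scale, with adjusted p up to 0.104 and 0.157.

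Only 3 members had groups that did not overlap, compared with 36.5% of all genes tested. The third was RPL39L, at 12.9, 12.8 and 14.3 CPM in A375neg and 15.3, 17.9 and 15.4 CPM in A375RIPK4.KO. Its log2 fold change was 0.28 ± 0.11 (SE; adjusted p = 0.119, edgeR's quasi-likelihood test), and 0.21 without replicate 2. The largest positive value belonged to RPS29, with 183, 148 and 155 CPM against 164, 267 and 174 CPM. Its log2 fold change of 0.32 ± 0.17 (SE; adjusted p = 0.259) rested on replicate 2, without which it was 0.06.

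Leaving out A375RIPK4.KO replicate 2 changed the picture. Replicates 1 and 3 both lay under every control for 39 of 70 members, compared with 24.4% of all genes, and both over every control for 1. In this fit of 3 against 2 libraries, 13 members were lower (10.1% of all genes) and 0 higher (9.71% of all genes) at an adjusted p under 0.05 by edgeR's quasi-likelihood test. At an unadjusted p under 0.05 there were 27 lower (16.4% of all genes in this fit) and 0 higher (16.0%). The median log2 fold change turned from 0.04 to -0.11, with 62 of 70 below 0. None of the 13 reached 1.5-fold. This fit was chosen for the library that stood apart in these same genes.

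The 13 were 10 large-subunit and 3 small-subunit genes. Besides RPL13 (-0.49) and RPS27L (-0.51) they included RPL22 (-0.28), an RNA-binding protein that ribosomes can lack, and the stalk proteins RPLP1 (-0.27) and RPLP2 (-0.29). RPL39 (-0.19), a small protein of the exit tunnel, RPL3 (-0.15), of the peptidyl transferase centre, and RPS27 (-0.19) were also among them. The others were RPL14, RPL29, RPL30, RPL38 and RPS28, between -0.22 and -0.15 on the log2 scale. With all 6 libraries, RPL22 had a log2 fold change of -0.16 ± 0.10 (SE; adjusted p = 0.297, edgeR's quasi-likelihood test).

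**Figure D2:**
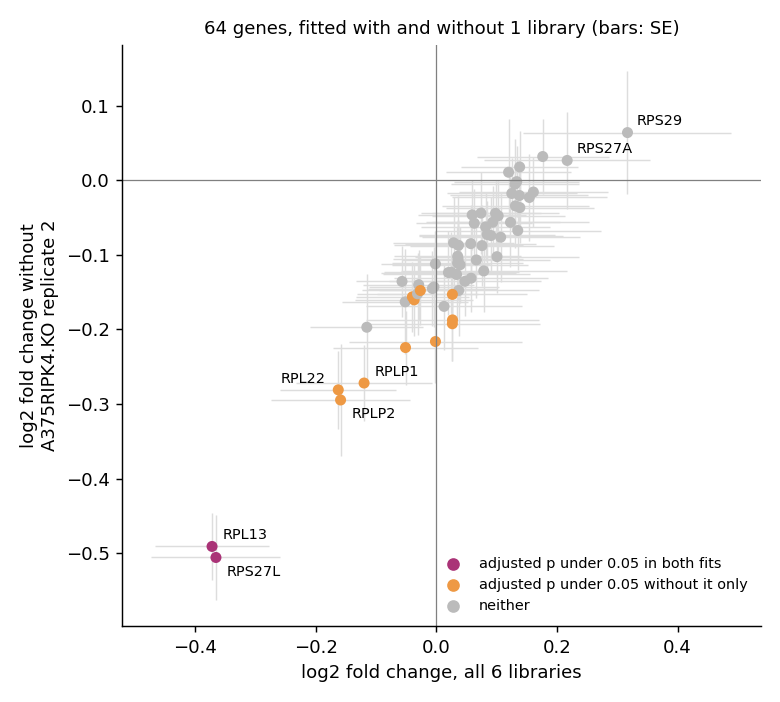
Log2 fold change of A375RIPK4.KO over A375neg for 64 ribosomal protein genes with all 6 libraries (x axis) and without A375RIPK4.KO replicate 2 (y axis), with SE bars. RPL13 and RPS27L lie apart at the lower left in both fits, and most other points lie under 0 on the y axis only.

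The stalk comprises RPLP0, RPLP1 and RPLP2, which recruit elongation factors, and RPL12 at its base. Their log2 fold changes were -0.03, -0.12, -0.16 and -0.01, with 0 of 4 called in the fit of all libraries, and -0.15, -0.27, -0.29 and -0.15 without replicate 2. RPLP2 stood at 421, 368 and 364 CPM in A375neg and at 331, 408 and 295 CPM in A375RIPK4.KO, so that the groups overlapped through replicate 2.

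RPL11 and RPL5 carry the 5S ribosomal RNA and bind MDM2, the inhibitor of p53, when ribosome assembly is disturbed. RPL11 stood at 869, 856 and 888 CPM in A375neg and at 863, 1041 and 820 CPM in A375RIPK4.KO. Its log2 fold change was 0.06 ± 0.089 (SE; adjusted p = 0.703, edgeR's quasi-likelihood test), turning to -0.05 without replicate 2. RPL5, listed with another transcript type and so no member, had 0.08 ± 0.10 (SE). RPL11 was also among the 3 members with the smallest within-group SD of log2 CPM, at 0.13, beside RPS26 (0.10) and RPL39L (0.11). The largest were RPS18 (0.56), RPL36A (0.49) and RPL17 (0.36), all at low counts.

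RPS6 is the classic substrate of S6 kinase. It stood at 2423, 2482 and 2372 CPM in A375neg and at 2177, 2949 and 2332 CPM in A375RIPK4.KO, with overlapping groups. RPS19, the gene most often mutated in Diamond-Blackfan anaemia, had a log2 fold change of -0.0040 ± 0.11 (SE). RPS27A, a ubiquitin fusion, had 0.22 ± 0.14, and RPL41, which encodes one of the shortest human proteins, -0.05 ± 0.10. Without A375RIPK4.KO replicate 2 the values were -0.10 for RPS6, -0.14 for RPS19, 0.03 for RPS27A and -0.16 for RPL41, and none of the 4 genes passed the test in either fit.

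Some members exist as a founder and a copy, and the ratio of copy to founder within a library does not depend on scaling. RPS27L had 13.9%, 14.2% and 13.5% of the counts of RPS27 in A375neg and 10.8%, 9.80% and 11.5% in A375RIPK4.KO. All 3 knockout libraries lay under the controls, with a log2 ratio changed by -0.38 (exact permutation test, p = 0.1, the smallest possible; adjusted p = 0.233 over 7 pairs), and by -0.31 without replicate 2. RPL22L1, of another transcript type, had 22.2%, 20.3% and 22.1% of the counts of RPL22 in A375neg and 23.6%, 23.2% and 24.8% in A375RIPK4.KO. Here all 3 knockout libraries lay above, by 0.15 (exact permutation test, p = 0.1, adjusted p = 0.233), and by 0.17 without replicate 2.

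RPL39L relative to RPL39 differed by 0.28 with overlapping groups, from 1.99% to 2.26% in A375neg and from 2.20% to 2.88% in A375RIPK4.KO (exact permutation test, p = 0.2). RPL26L1 to RPL26 differed by 0.05 and RPL7L1 to RPL7 by -0.16 (exact permutation tests, p = 0.7 and 0.6). The pairs of RPL3L and RPL36AL rest on 0 to 2 counts of RPL3L and 6 to 15 counts of RPL36A and are not read. RPL10L is not listed.

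The wider translation programme was compared from lists of known genes. Among 40 ribosome biogenesis genes 10 were higher and 0 lower by edgeR's quasi-likelihood test (unadjusted p under 0.05 in 16 higher and 1 lower; DESeq2 gave 10 and 0), with a median log2 fold change of 0.14. Over all genes 8.40% were higher. Without A375RIPK4.KO replicates 1, 2 and 3 the count was 6, 12 and 5 of 40, without A375neg replicates 1, 2 and 3 it was 4, 2 and 1, and scaling to the members' counts left 1, each with 0 lower. Of all genes, 1072 of 14827, 1450 of 14931 and 836 of 14904 were higher without A375RIPK4.KO replicates 1, 2 and 3. Without A375neg replicates 1, 2 and 3 it was 775 of 14859, 744 of 14835 and 829 of 14867, and after the scaling 505 of 14443. Without A375neg replicate 2 or 3, and after the scaling, the list's share did not exceed that of all genes. The 10 higher genes included BOP1 and WDR12, which work together in large-subunit maturation, and MRTO4, which holds the place of RPLP0 during assembly. NOP58 and DKC1, core proteins of the small nucleolar ribonucleoproteins, were also among them. BOP1 rose by 0.49 ± 0.091 (SE; adjusted p = 0.00567, edgeR) and the others between 0.20 and 0.36, so none reached 1.5-fold. These genes were named after their values had been seen.

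Among 74 mitochondrial ribosomal protein genes MRPL1, MRPS2 and MRPS5 were higher and 0 lower (unadjusted p under 0.05 in 13 and 3; DESeq2 gave 6 and 0), with a median of 0.08. That is 4.05%, under the 8.40% of all genes. Without A375RIPK4.KO replicate 2, 3 were higher and 8 lower, where 10.1% of all genes were lower. NACA, a subunit of the nascent polypeptide-associated complex, was the 1 of 17 translation factor genes that was higher, POLR1F the 1 of 13 RNA polymerase I genes and PDCD2L the 1 of 10 ribosomal protein chaperones. In the list of 15 regulators 0 passed (1 at an unadjusted p under 0.05, 0 by DESeq2). In all, 16 of 174 genes of these lists were called (9.20%, compared with 16.6% of all genes). The count was 14, 30 and 9 without A375RIPK4.KO replicates 1, 2 and 3, and 6, 3 and 3 without A375neg replicates 1, 2 and 3. In those fits 14.4%, 19.8%, 11.6%, 10.7%, 10.3% and 11.1% of all genes were called, in the same order.

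A further 10 rows fit the name rule but carry another transcript type, RPL5 and RPL22L1 among them. None was called (0 at an unadjusted p under 0.05), their median log2 fold change was 0.04, and replicate 2 was the highest knockout library in 9 of 10. Without replicate 2 their median was -0.08, all 10 lay below 0 and 3 had an unadjusted p under 0.05, each lower. With them the share of counts was 7.11% to 7.22% in A375neg and 6.67%, 8.43% and 6.87% in A375RIPK4.KO.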

How the data were processed

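Poly(A)-enriched, strand-specific RNA-seq libraries were made and sequenced by an external provider. The submitters' processing notes name cutadapt, FastQC, HISAT2, HTSeq and DESeq2 (versions not given in the sources used here) and build GRCh38.p13. The authors deposited raw counts per gene and normalized counts, a signal in which each library was scaled by 1 size factor. The authors' columns of fold ratios, log2 values, Wald scores and p-values come from their own test and were not used.

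Raw counts were analysed in R 4.3.3 with edgeR 4.0.16 (TMM, filterByExpr, quasi-likelihood test, group only, Benjamini-Hochberg adjustment over 14443 genes). The SE is the size of the log2 fold change divided by the square root of F. Labels call the libraries biological replicates without naming cultures, so p-values measure the spread between these libraries. Single values per library were compared by exact permutation, two-sided. Paralogue ratios used a pseudocount of 0.5 counts. Floors of 3 counts cover counting error only, and 95% intervals of fold changes come from the edgeR fit. Lengths came from GENCODE v29 and start sequences from RefSeq on GRCh38.p14. Depth was 21882863 to 26694140 counts per library. Alternatives used DESeq2 1.42.0, other scalings and filters, a replicate block, a length correction, summed copies and each library left out. The fits were tested on simulated counts of independent genes, without a length trend or a library that stood apart. That test therefore did not cover these features of the data. Figures used Python 3.11.15 and matplotlib 3.10.9.

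Members and lists were chosen with earlier results of these data known. Named genes were those with adjusted p under 0.05, the 5 highest and 5 lowest per length, the 3 largest and 3 smallest in spread, paralogue pairs, the stalk, RPL5, RPL11, RPS6, RPS19, RPS27A, RPL41, ribosomal proteins with other symbols, and companion list genes with adjusted p under 0.05 and a 1.5-fold change (none). Other names were added after their values were seen. Reads and proteins were not analysed here. Some results computed for these genes are not reported here.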

Additional observations from a re-analysis of the deposited data

How the results depend on the processing

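RPL13 and RPS27L were called, and no other member, under DESeq2, DESeq2 size factors in edgeR, TMM without the members, no filter or a mean of at least 50 counts, summed copies, the replicate block, the length correction with and without the block, and scaling to the members' counts. Leaving out 1 library gave 0 to 13 members called and 3 to 30 companion genes, where 10.3% to 19.8% of all genes were called. It also gave a median log2 fold change of the members from -0.11 to 0.13, a difference in share from -0.366 to 0.436 percentage points, and an excess of the knockout's SD over the control's from 0.0094 to 0.273 (0.198 with all libraries, 0.123 after length correction). The lowest or negative value in each of the last 3 came without A375RIPK4.KO replicate 2. The range of the length slopes over libraries was 0.074, 0.138 with protein-coding genes only and 0.032 to 0.071 with 1 library left out. Companion genes called numbered 26 (14.9%, compared with 19.8% of all genes) with length correction and replicate block. After scaling to the members' counts they numbered 2 (1.15%, compared with 7.37% of all genes), and the members' median was -0.0035. The cause was not tested.

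The replicate numbers showed no clear pairing of the libraries (correlations of same-numbered deviations 0.070, 0.033 and -0.011). Between libraries of different numbers the correlations ranged from -0.084 to 0.061. So few libraries cannot settle whether same-numbered ones shared a batch. The replicate block left 2 members called and 21 companion genes (2.86% and 12.1%, compared with 17.6% of all genes).

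Log2 ratios to the founder ranged, with 1 library left out, from -0.25 to 0.0090 for RPL7L1, -0.0060 to 0.074 for RPL26L1 and -0.33 to 0.48 for RPL36AL, and RPL3L stood at 2.79 with a pseudocount of 0.1.

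Among the 27 genes compared over the settings, log2 fold changes near 0 changed sign without passing the test, except RPL39 and RPS27 without A375RIPK4.KO replicate 2. Of all 70 members tested, 48 lay above 0 with all libraries and 8 without that replicate. RPS19 was 0.00081 with no filter. RPS27 was -0.00070 with the replicate block. With length correction RPL39 was -0.00027 and RPS27 -0.0020, and with the block added -0.010 and -0.013. Scaled to the members, RPL10 was -0.0044, RPL39 -0.026, RPS2 -0.0031, RPS27 -0.026 and RPS6 -0.0055. With copies summed RPL7A was -0.11 and RPS18 0.057. With 1 library left out, the ranges were -0.11 to 0.11 for RPL10, -0.047 to 0.13 for RPL11, -0.15 to 0.085 for RPL12, -0.38 to 0.080 for RPL17, -0.074 to 0.20 for RPL26, -0.0051 to 0.20 for RPL26L1, -0.15 to 0.051 for RPL3, -0.23 to 0.26 for RPL36A, -0.19 to 0.14 for RPL39, -0.16 to 0.060 for RPL41, -0.018 to 0.20 for RPL7, -0.022 to 0.40 for RPL7A, -0.044 to 0.17 for RPL8, -0.15 to 0.059 for RPLP0, -0.48 to 0.020 for RPS18, -0.14 to 0.091 for RPS19, -0.087 to 0.15 for RPS2, -0.19 to 0.13 for RPS27 and -0.10 to 0.12 for RPS6.

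RPS25, RPL3L, RPL36A, RPS18 and RPL7A had means under 30 counts, which limits the precision of their values. Groups of 3 were not tested for outliers, and 3 against 3 libraries of 1 clone do not separate the knockout from the clone.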
